A study of Saccharomyces cerevisiae with 2 samples.

Results

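Molecular chaperones are the proteins that help other proteins fold, keep them soluble and pull them out of aggregates. The 40 chaperone and cochaperone genes of budding yeast (Saccharomyces cerevisiae) described here were taken by name, as every probe set whose annotated gene symbol was 1 of the 40. They cover the cytosol, the endoplasmic reticulum (ER) and the mitochondria, and were drawn from 5923 genes named on the array. Of the 40, 38 had at least 1 probe set of their own. SSB1 and SSB2 were measured by 1 probe set that both share. In all 44 probe sets reported these genes, 40 for a single gene and 4 for a pair of paralogues, and 0 of the 44 also named a gene outside the set.

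Both samples belonged to 1 group, replicate cultures 1 and 2 of the histone H3 K4,36,79R strain, 18 hours after the move from galactose to glucose. In galactose these cells also made wild-type histone H3. Glucose shut that gene off, so that an H3 with arginine at positions 4, 36 and 79 in place of lysine remained as the source of H3. Cells grew in selective media and were collected at an optical density of 0.5 to 0.7. The sources used here give neither the strain background nor the mating type or the growth temperature. Wild-type cultures and earlier times were not analysed here, so each value below describes the mutant at 18 hours and says nothing of a change caused by it. The array-to-array spread mixes culture, labelling and hybridisation.

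Total RNA was labelled with biotin and hybridised to Affymetrix yeast arrays of 9335 probe sets, 1 array per culture. Values are MAS5 signals in arbitrary units on a linear scale, written as mean ± SD (n = 2 arrays). The median over all probe sets was 25.5 on replicate 1 and 25.7 on replicate 2. As a sign of RNA integrity, the ACT1 control at the 3′ end gave 1.61 times the signal of that at the 5′ end on replicate 1 and 1.57 times on replicate 2. As a check of the growth state, ADH1, the alcohol dehydrogenase of fermentation, gave 1362 and 1333, and GAL1, the galactokinase that glucose represses, gave 7.23 and 6.67. Other galactose genes had mean signals of 32.7 for GAL10, 17.4 for GAL7 and 12.8 for GAL2. GAL10 lay at -0.54 in log2, replicate 2 minus replicate 1. GAL1 alone therefore does not show that all galactose genes were equally low or alike on both arrays. The 12 sporulation markers, for another state of yeast cells, had a median signal of 9.59 and ran from 2.59 to 61.4. All 12 exceeded the background described below, and 3 reached the minimum signal for comparison. The low median therefore does not show that each of these genes was silent. Probe sets differ in affinity, so a higher signal for one gene than for another is not a higher transcript level.

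In the cytosol, Hsp70 proteins bind exposed hydrophobic stretches of a client in a cycle driven by ATP, J-domain proteins start that cycle and exchange factors end it. Hsp90 acts later, on clients close to their final fold, with cochaperones that steer it. The chaperonin TRiC/CCT encloses actin, tubulin and other clients in a double ring. Mitochondria and the ER have Hsp70 systems of their own. Several of these genes exist as paralogues, of which one is made in unstressed cells and the other mainly after heat, under the heat shock factor Hsf1 and the stress factors Msn2 and Msn4.

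Chaperone signals exceeded a low background on both arrays, and as deposited they differed between the arrays by at most 1.17-fold. All 38 genes with their own probe set exceeded the background, taken as the 95th percentile of 13 probe sets for genes that yeast does not have. The background was 1.86 on replicate 1 and 1.69 on replicate 2, and 96.3% of the 6504 single-gene probe sets exceeded it, so passing it says little. The genes' mean signals ran from 42.3 for LHS1 to 1280 for SSA1, with a median of 223.6. The 4241 genes that averaged 20 or more, the set compared below, had a median of 55.3. All 38 chaperone genes passed that minimum.

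Between the arrays, the higher signal exceeded the lower by more than 25% in 0 of the 38 genes. The background was 5.09% of the 4241 genes. Dim genes differ more, and among genes with a signal of at least 100 the share was 0 of 32 chaperone genes and 2.3% of all 1217. With shares this small, a count of 0 in 38 or 32 genes is near the background. The widest difference as deposited was 1.17-fold, for ZUO1. On the log2 scale, replicate 2 minus replicate 1, the 38 genes ran from -0.21 to 0.23 with a median of 0.01 and an SD of 0.12. All 4241 genes had a median of 0.02 and an SD of 0.17. The SD of a gene's signal was a median of 5.0% of its mean for the chaperones and 4.91% for the genes compared. Among genes with a signal of at least 100 it was 5.19% for the chaperones and 4.03% for all. By that measure the chaperones were not steadier than other genes above the same minimum. The SD of the log2 differences went the other way, at 0.12 for the 32 chaperone genes and 0.14 for all 1217. These sets share only a minimum signal, with median signals of 265.0 and 192.3. Neither difference was tested. With 1 array on each side, no difference between the arrays has a test.

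**Figure D1:**
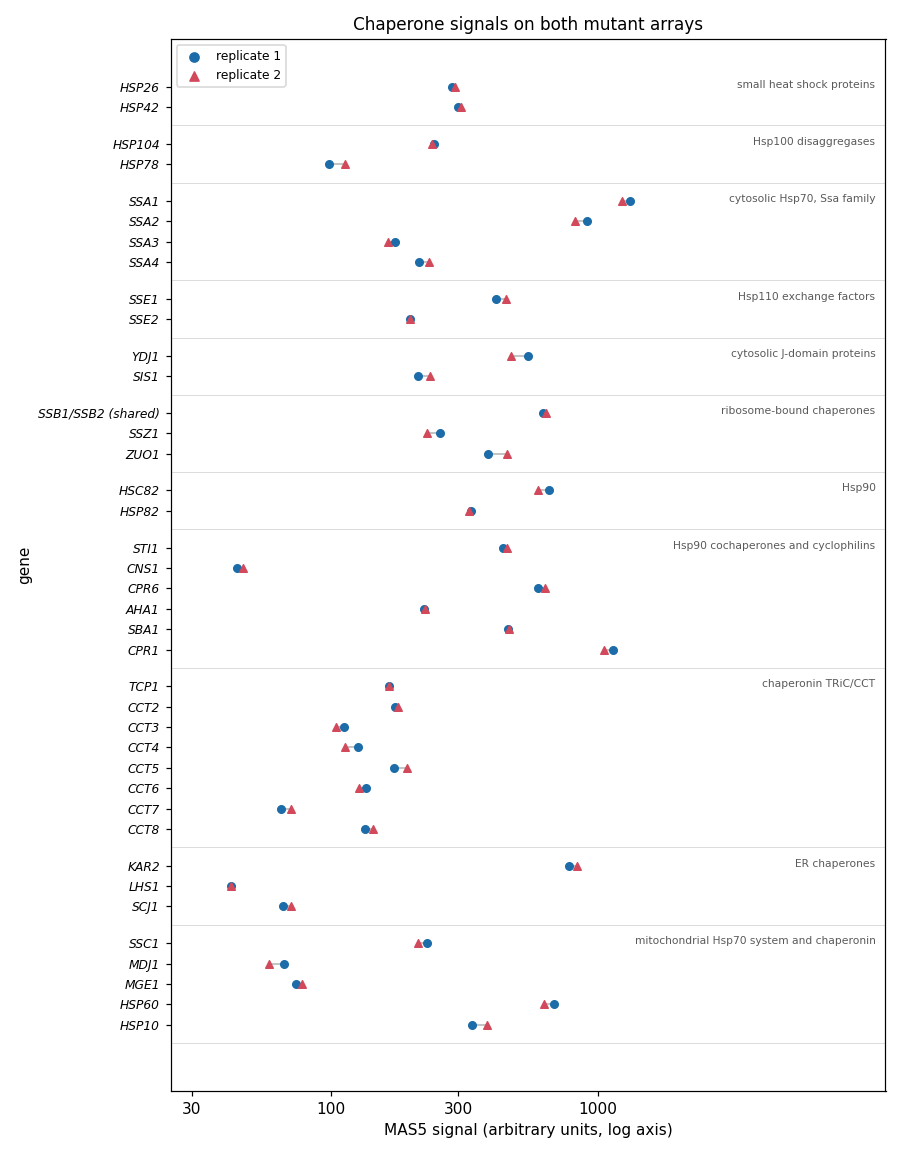
MAS5 signal (arbitrary units, log axis) of each chaperone gene on replicate 1 (blue circles) and replicate 2 (red triangles), grouped by role, with a grey line joining the 2 values and with the probe set shared by SSB1 and SSB2. The pairs lie close together throughout, with the widest gap at ZUO1 (1.17-fold); positions of different genes are not levels on a common scale.

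The small heat shock proteins hold unfolded proteins in a state from which they can be recovered. HSP26, which is activated by heat, gave 283.6 on replicate 1 and 290.4 on replicate 2, a mean of 287.0 ± 4.81. HSP42, which acts in unstressed cells as well, gave 299.1 and 305.8, a mean of 302.4 ± 4.74. Both were steady between the arrays, with SDs of 1.67% of the mean for HSP26 and 1.57% for HSP42. HSP104, the Hsp100 ATPase that threads proteins out of aggregates, gave 242.8 and 238.4. HSP78, its relative in the mitochondrial matrix, gave 98.0 and 112.4 and was 1.15-fold higher on replicate 2.

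The Ssa proteins are the main Hsp70 chaperones of the cytosol, with SSA1 (YAL005C) and SSA2 (YLL024C) made in unstressed cells and SSA3 (YBL075C) and SSA4 (YER103W) known as the heat-inducible members. SSA1 gave 1323 on replicate 1 and 1237 on replicate 2, a mean of 1280 ± 61.4. SSA2 gave 914.6 and 820.9, a mean of 867.8 ± 66.3. Both constitutive genes were lower on replicate 2, by 0.10 for SSA1 and 0.16 for SSA2 on the log2 scale, though SSA1 turned to 0.03 higher after quantile normalization. SSA3 gave 173.9 and 163.5, a mean of 168.7 ± 7.37. SSA4 gave 214.1 and 233.1, a mean of 223.6 ± 13.5. The heat-inducible pair differed in sign, SSA3 by -0.09 and SSA4 by 0.12 in log2. Both exceeded the background, but so did 96.3% of single-gene probe sets, so this says little about whether the heat-inducible genes were expressed. The labels record no heat treatment for these cultures. The signals of SSA3 and SSA4 do not give the share of Ssa transcripts they make up.

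A ratio of paralogue signals carries the unknown affinities of both probe sets. These cancel when the ratio is compared between the arrays, provided each probe set reads only its own transcript. That is not assured here, as described below for SSA1 and SSA2. The log2 ratio of SSA3 to SSA1 was 0.01 higher on replicate 2 than on replicate 1, and that of SSA3 to SSA2 was 0.07 higher. The log2 ratio of SSA4 to SSA1 was 0.22 higher, and that of SSA4 to SSA2 was 0.28 higher, or 1.21-fold. These shifts depended on how the arrays were scaled. After quantile normalization SSA3 to SSA1 was lower on replicate 2, by -0.13, and SSA4 to SSA1 was higher by 0.10. With that scaling SSA3 to SSA2 lay at -0.0056 and SSA4 to SSA2 was higher by 0.22. The running median over probe sets with neighbouring numbers was also subtracted. SSA4 to SSA1 was then higher by 0.11 and SSA4 to SSA2 by 0.14. These ratios share genes and are not independent of each other, and the next values show how far probe sets of the same genes disagree.

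SSA1 and SSA2 encode nearly identical proteins, so that a probe can match both transcripts, and the SSA1 signal above comes from a probe set with the suffix _r_at. Affymetrix gives suffixes other than plain _at to probe sets whose probes could not all be chosen as unique under its usual rules. Of the 2 probe sets annotated to both genes, the one marked _i_at gave 1947 on replicate 1 and 1832 on replicate 2. That was the highest signal of all 9335 probe sets on both arrays. The other, marked _s_at, gave 517.3 and 588.7 and was 0.19 higher on replicate 2 in log2, while the _i_at set was lower by 0.09. The 4 probe sets for these genes thus spanned -0.16 to 0.19 between the same 2 RNA samples, and 1 of them differed in sign from the other 3.

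The Hsp110 proteins SSE1 and SSE2 exchange nucleotide on cytosolic Hsp70. SSE1, the constitutive gene, gave 414.4 on replicate 1 and 451.4 on replicate 2, and SSE2, the stress-inducible gene, gave 197.1 and 198.2. The log2 ratio of SSE2 to SSE1 was lower on replicate 2, by -0.12. Of the J-domain partners of the Ssa proteins, YDJ1 gave 545.4 and 471.3, and SIS1 gave 212.0 and 235.1. YDJ1 was 1.16-fold lower on replicate 2 and SIS1 1.11-fold higher, so these partners of the same Hsp70 had opposite signs.

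Chaperones at the ribosome meet the nascent chain as it leaves the exit tunnel. The Hsp70 genes SSB1 and SSB2 encode nearly identical proteins, and their shared probe set gave 621.7 on replicate 1 and 638.4 on replicate 2, a mean of 630.0 ± 11.8. It cannot divide the signal between them. SSZ1 and ZUO1 encode the Hsp70-like and J-domain subunits of the ribosome-associated complex, which activates Ssb. SSZ1 gave 256.3 and 229.5 and was 1.12-fold lower on replicate 2. ZUO1 gave 389.2 and 455.0 and was 1.17-fold higher. Subunits of 1 complex thus lay at -0.16 and 0.23 in log2, nearly the whole span of the 38 genes.

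Hsp90 has the inducible gene HSP82 (YPL240C) and the constitutive gene HSC82 (YMR186W). HSP82 gave 333.8 on replicate 1 and 328.6 on replicate 2, a mean of 331.2 ± 3.73, from a probe set marked _i_at. HSC82 gave 655.3 and 596.5, a mean of 625.9 ± 41.6. The probe set annotated to both gave 610.7 and 620.8. The log2 ratio of HSP82 to HSC82 was 0.11 higher on replicate 2, or 1.08-fold. With the running median by probe set number this ratio was 0.06 higher. The shared probe set differed by 0.02 in log2, while the genes' own sets differed by -0.02 for HSP82 and -0.14 for HSC82. HSP82 turned to 0.03 higher after quantile normalization.

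The Hsp90 cochaperones differed little between the arrays as deposited. SBA1, the p23 homologue that holds the closed form of Hsp90, gave 462.6 on replicate 1 and 464.5 on replicate 2. AHA1, the activator of the Hsp90 ATPase, gave 222.8 and 224.3. Both differed by 0.01 in log2. STI1, which bridges Hsp70 and Hsp90, gave 439.9 and 457.4. CNS1, an essential cochaperone with the same kind of tetratricopeptide domain, gave 44.2 and 46.7. CPR6, a cyclophilin that binds Hsp90, gave 595.1 and 632.5, 1.06-fold higher on replicate 2. Its log2 difference of 0.09 as deposited became 0.14 after quantile normalization and 0.15 with the running median by probe set number. As deposited, the 6 genes of this group, with CPR1, had an SD of 0.07 in log2 difference, against 0.12 for all 38. That difference in SD was not tested. With the running median CPR1 lay at -0.16.

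CPR1 encodes cyclophilin A, the cytosolic proline isomerase that cyclosporin binds, and has 3 probe sets annotated to it alone. The brightest, marked _g_at, gave 1140 on replicate 1 and 1052 on replicate 2. The others gave 830.6 and 815.1, and 996.9 and 1035. Their log2 differences were -0.12, -0.03 and 0.05, so the direction for CPR1 depended on the probe set read. This spread of 0.17 comes from 1 gene measured in the same 2 samples.

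Over the array, 43 genes had several probe sets of their own that all reached a mean signal of 100. The pooled SD of the log2 differences within such a gene was 0.13, and in 22 of the 43 (51.2%) the probe sets had both signs. Over the 1217 genes with a signal of at least 100, the SD between genes was 0.14. The SD over the 38 chaperone genes, 0.12, was therefore no wider than the disagreement between probe sets of a single gene. The log2 difference of SSA4, 0.12, was within 1 such SD, and those of YDJ1 and ZUO1, -0.21 and 0.23, were within 2.

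**Figure D2:**
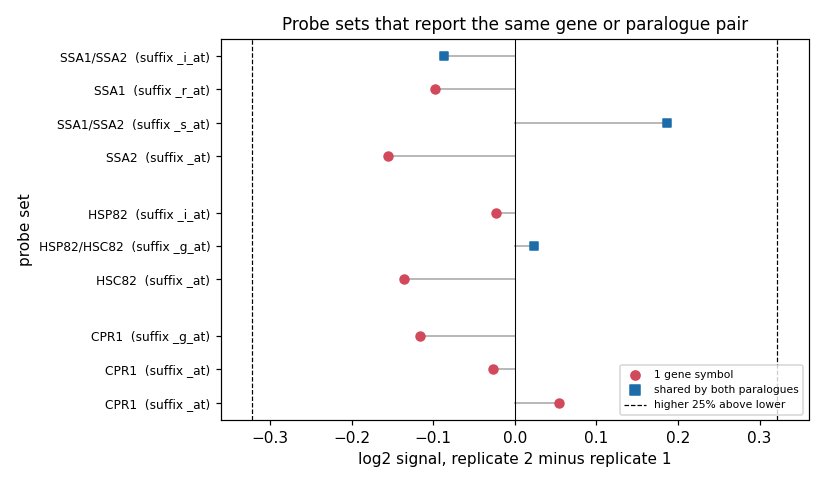
Log2 signal difference, replicate 2 minus replicate 1, for each probe set of SSA1 and SSA2, of HSP82 and HSC82, and of CPR1; red circles are probe sets of 1 gene symbol, blue squares those shared by both paralogues, and dashed lines mark a signal 25% above the lower one. Within each of the 3 sets the probe sets fall on both sides of 0, and those of SSA1 and SSA2 run from -0.16 to 0.19.

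The 8 subunits of TRiC/CCT, each present once in every ring, had mean signals from 67.8 for CCT7 to 182.4 for CCT5. TCP1, the founding subunit, gave 164.7 on replicate 1 and 165.6 on replicate 2, and CCT2 gave 173.4 and 178.7. Both differed by under 0.05 in log2. CCT5 gave 171.8 and 193.0, the largest positive difference of the complex at 0.17. CCT4 gave 125.7 and 112.4, the largest negative one at -0.16. In the same direction as CCT5, CCT7 gave 64.7 and 70.8 and CCT8 gave 133.7 and 144.1. In the same direction as CCT4, CCT3 gave 111.8 and 104.0 and CCT6 gave 135.0 and 127.4. Of the 8, 5 were higher and 3 lower on replicate 2, with a median of 0.03 and an SD of 0.12, so the subunits did not share a direction. TCP1, close to 0, lay on the lower side after median centring, loess and the running median.

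In the ER, KAR2, the Hsp70 (BiP) that also restrains the unfolded protein response, gave 782.2 on replicate 1 and 838.2 on replicate 2. LHS1, its exchange factor, gave 42.3 on both arrays and was the dimmest of the 38. SCJ1, a J-domain partner of Kar2 in the lumen, gave 66.3 and 70.6. The log2 differences of 0.10, 0.00 and 0.09 were all at or above 0, where 56.3% of the 4241 genes were higher. LHS1 was below 0 after each of the other scalings.

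In the mitochondrial matrix, SSC1, the Hsp70 that pulls in and folds imported proteins, gave 228.7 on replicate 1 and 211.2 on replicate 2. Its J-domain partner MDJ1 gave 66.8 and 58.7 and was 1.14-fold lower on replicate 2. MGE1, the exchange factor of the same cycle, gave 73.7 and 77.6. HSP60, the barrel of the matrix chaperonin, gave 686.4 and 629.4, a mean of 657.9 ± 40.3. HSP10, the lid of that chaperonin, gave 336.4 and 383.5, a mean of 360.0 ± 33.3. The barrel lay at -0.13 and the lid at 0.19 in log2, so that these partners, like SSZ1 and ZUO1, had opposite signs. The partners SSC1 and MDJ1 were both lower, and KAR2 and SCJ1 both higher. With 56.3% of the 4241 genes higher on replicate 2, opposite signs are common between any genes, and no pairing was tested.

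With the smaller limit of 1.1-fold, chosen after the data were seen, 10 of the 38 genes differed between the arrays, 5 higher and 5 lower on replicate 2. The higher ones were ZUO1, HSP78, HSP10, CCT5 and SIS1, and the lower ones YDJ1, MDJ1, CCT4, SSZ1 and SSA2. The background at that limit was 36.2% of the 4241 genes, made up of 21.1% higher and 15.1% lower, and it was 28.8% of the 1217 with a signal of at least 100. Among the 32 chaperone genes that bright, 5 were higher and 4 lower by that limit. These counts are near the background. The split and the names changed with the scaling: median centring gave 4 higher and 9 lower, quantile normalization 8 and 4, loess 7 and 4, and the running median by probe set number 3 and 7. Of the 10 genes, 6 (ZUO1, HSP10, YDJ1, MDJ1, CCT4 and SSZ1) passed the limit under each of these scalings. The share of all genes that did so is not given here, nor is their share under each other scaling. All scalings reuse the same 2 arrays, so the 6 are not shown to differ more than other genes.

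**Figure D3:**
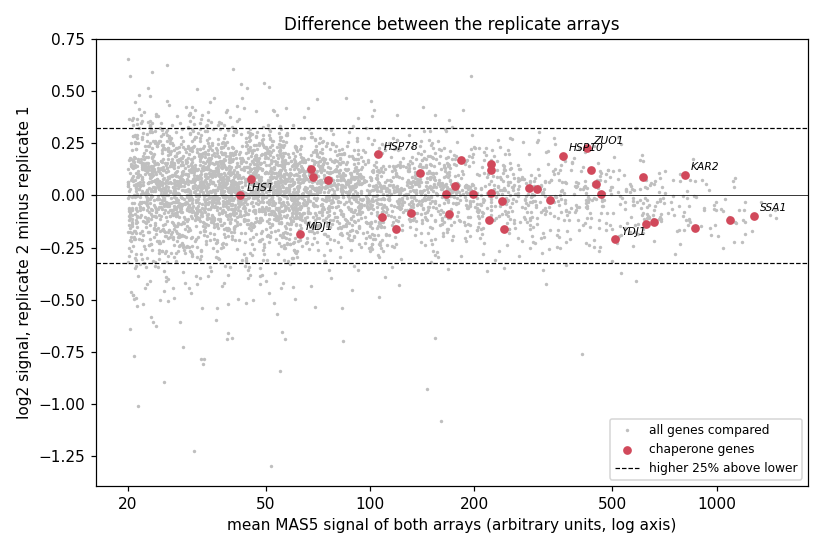
Log2 signal difference, replicate 2 minus replicate 1, against mean MAS5 signal (arbitrary units, log axis) for the 4241 genes compared (grey) and the 38 chaperone genes (red), with dashed lines where the higher signal is 25% above the lower. The chaperone genes run from -0.21 to 0.23 and 0 of them lies outside the dashed lines.

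The 40 genes lie on 15 chromosomes and have coding lengths from 321 bases for HSP10 to 2727 bases for HSP104. In gene order, HSP104 and SSA2 have 1 protein-coding gene between them on chromosome XII, as do TCP1 and AHA1 on chromosome IV, and CCT3 and CCT8 have 4 between them on chromosome X. The log2 differences within these near pairs were -0.03 for HSP104 and -0.16 for SSA2, 0.01 for both TCP1 and AHA1, and -0.10 for CCT3 and 0.11 for CCT8. As deposited, the signs were alike in the first 2 pairs and opposite in the third. The like signs depended on the scaling. With the running median by probe set number HSP104 lay at 0.03 and SSA2 at -0.10. After loess TCP1 lay at -0.0048 and AHA1 at 0.0042.

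Around these members, 8 further lists of folding and heat shock genes held 83 different genes, of which 81 had a probe set of their own and 65 reached a signal of 20. Past the limit of 25%, 1 was higher and 3 were lower on replicate 2, where the background was 2.43% higher and 2.66% lower. The 65 had a median log2 difference of 0.01 and an SD of 0.17. Of the 8 listed regulators of the heat and stress response, 0 passed it, and the brightest were MBF1, a coactivator (339.0 ± 4.84), RPN4, the activator of proteasome genes (168.3 ± 13.4), and RIM15, a kinase of nutrient signalling (89.8 ± 7.64). In the list of other heat-induced genes, HSP12, a membrane-associated stress protein, gave 983.3 ± 31.4, HSP150, a cell wall protein, gave 961.8 ± 88.8, and DDR48 gave 767.5 ± 64.6. CTT1, the cytosolic catalase, gave 46.8 on replicate 1 and 61.2 on replicate 2 and was 1.31-fold higher on replicate 2.

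The prefoldin complex hands unfolded actin and tubulin to TRiC/CCT, and the nascent polypeptide-associated complex (NAC) covers the exit of the ribosome. The NAC subunits EGD2 and EGD1 gave 573.0 ± 67.9 and 566.4 ± 28.0, and the prefoldin subunit GIM5 gave 63.8 ± 5.31. The prefoldin subunits YKE2 and PFD1 were each 1.27-fold lower on replicate 2, with 50.1 and 39.4 for YKE2 and 25.2 and 19.9 for PFD1. Over the 8 compared genes of that list the median was -0.07 in log2, with 2 higher and 6 lower, where 56.3% of the 4241 genes were higher. YKE2 and PFD1 are 2 of these 8, and over all genes 2.66% were lower by that much; the difference was not tested.

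Among 6 compared Hsp90 cofactors beyond the members, 0 passed 25%; at a background of 5.09%, lists as short as this and the next ones hold too few genes for a count of 0 to say anything. CDC37, which brings kinases to Hsp90, came nearest with 176.7 on replicate 1 and 216.2 on replicate 2. HCH1, a relative of AHA1, gave 95.1 ± 7.62, and PPT1, a phosphatase that acts on Hsp90, gave 89.9 ± 8.70 from a probe set marked _s_at. Of the other J-domain proteins, 17 were measured and 10 compared, 0 of them past 25%, with CAJ1 at 136.4 ± 3.82, PAM18, which stimulates Ssc1 at the import channel, at 58.5 ± 1.23 and SEC63, of the ER translocon, at 56.1 ± 1.06. Of the exchange factors and relatives, FES1, which acts on Ssa proteins, gave 219.6 ± 10.9, SIL1, which acts on Kar2, gave 61.8 ± 0.0702 and SNL1, at 18.4 ± 2.41, fell under the minimum for comparison.

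For folding in the ER, 14 of 17 listed genes were compared and 0 passed 25%. HAC1, the transcription factor of the unfolded protein response, gave 482.7 ± 19.8 from a probe set marked _i_at, which does not say whether its messenger RNA was spliced. PDI1, the disulfide isomerase, gave 475.8 ± 16.6, and CPR5, an ER cyclophilin, gave 243.1 ± 15.4. For mitochondrial import and quality control, 11 of 15 genes were compared. PHB2, a prohibitin, gave 188.5 ± 3.63, PIM1, the matrix Lon protease, gave 158.3 ± 3.70 and AFG3, an inner membrane protease subunit, gave 132.5 ± 2.87. PAM17, a subunit of the import motor, gave 123.6 on replicate 1 and 88.2 on replicate 2, the widest difference of the further genes compared at 1.40-fold.

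**Figure D4:**
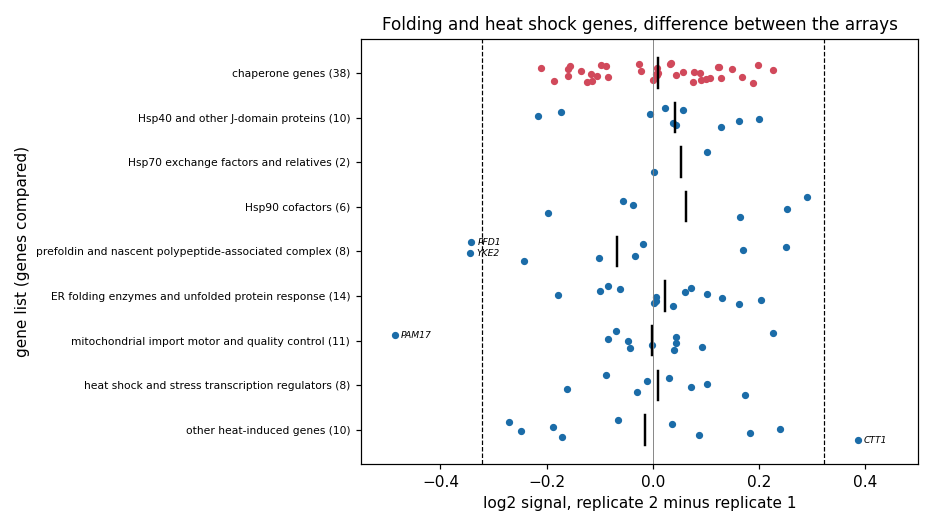
Log2 signal difference, replicate 2 minus replicate 1, of each gene compared in the chaperone set (red) and in 8 further lists (blue), with black bars at each list's median and dashed lines where the higher signal is 25% above the lower. The named genes YKE2, PFD1, PAM17 and CTT1 lie outside the dashed lines, and the numbers beside the list names are the genes compared.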

How the data were processed

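The authors deposited linear intensity values, 1 MAS5 signal per probe set, per the submitters' processing notes; its version and scaling are not stated there, and the precision is limited by the 2 arrays. Genes were named from the platform annotation, which can be old, and matched by symbol to the RefSeq table of assembly R64, which gave locus tags, coding lengths and gene order; all 40 members matched, and older listed names were updated through its synonyms. A gene with several single-symbol probe sets was read from the brightest. Log2 differences (replicate 2 minus replicate 1) were compared over genes that averaged 20 or more. There is 1 group, so no test was run. The calculations were tested on simulated data with less noise than these arrays and with planted differences larger than any among the chaperones. That test therefore does not cover differences as small as those described here. Python 3.11.15, numpy 2.4.6, pandas 2.3.3 and statsmodels 0.14.6 were used. Alternatives were an offset of 16, minimum signals of 0 and 40, other scalings, a running median over 101 neighbouring probe set numbers, and other probe set rules. The text names all members and, in each further list, the 3 brightest genes and those past the 25% limit. Members and lists were chosen with earlier results of these data known. Promoter motifs had been planned and were not analysed here.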

Additional observations from a re-analysis of the deposited data

How the results depend on the processing

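The count of chaperone genes above background, 38, was 38 with the highest foreign probe set as background, after quantile normalization and when a gene's probe sets were averaged. The dimmest chaperone gene averaged 42.3, and the highest foreign signal was 1.89 on replicate 1 and 2.19 on replicate 2. These alternatives therefore had little room to change the count. The median signal, 223.6, was 225.7 to 231.3 with either array alone. The count of genes past 25%, 0, was 0 with the offset, with no minimum signal, with a minimum of 40, after each of the 4 scalings below and when probe sets were averaged. It was 0 over all 44 probe sets and 10 with a limit of 1.1-fold, both chosen after the data were seen. The offset and the minimum signals could not have raised it. An offset only narrows a difference, and every chaperone gene averaged 42.3 or more. Averaging probe sets affects CPR1 alone. Under the scalings, the log2 difference reached -0.28 for MDJ1 with the running median by probe set number and 0.26 for ZUO1 after quantile normalization. The median log2 difference of 0.01 has no settled sign: it was 0.02 after loess and 0.03 after quantile normalization, but -0.01 after median centring and -0.01 after subtracting the running median by probe set number. As deposited, 23 genes were higher and 15 lower. That is 60.5% higher, near the 56.3% of the 4241 genes compared. The split became 18 and 20 after median centring and 18 and 19 with the running median (with 1 gene at 0). It was 20 and 18 after loess, and 24 and 14 after quantile normalization. The split of all genes under these other scalings is not given here. SSA1, lower on replicate 2 by 0.10 as deposited, was 0.03 higher after quantile normalization, and HSP82, at -0.02, was also 0.03 higher. No paired analysis was possible because both arrays belong to 1 group. With 1 array per culture, no difference of any size can be assigned to the cultures rather than to labelling or hybridisation.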
